A study of Homo sapiens with 6 samples.

Results

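The endoplasmic reticulum (ER) folds and quality-controls the proteins that a cell secretes or places in membranes, and the genes described here encode its chaperones and folding enzymes, the sensors and factors of the unfolded protein response (UPR), and the machinery of ER-associated degradation (ERAD). The set was a list of 43 genes, written as 44 names because VIMP is an older symbol of SELENOS. Of these, 41 were measured by at least 1 probe set naming that gene alone, out of 12165 genes measured so in all, and SYVN1 and SELENOS are not analysed here. The measured members were 6 sensors and factors, 26 chaperones and folding enzymes, and 9 ERAD genes. The cells were LNCaP, a human prostate cancer line with a luminal secretory character, grown in serum-containing medium. They received 20 µM gedunin, a plant limonoid found in the neem family, or its solvent DMSO, both for 6 h. Each of the 3 gedunin arrays and 3 DMSO arrays carried total RNA of what the labels number as a biological replicate, with no word on whether the cultures were grown separately, so a p-value here speaks only of how these arrays vary, which may be technical. The compound has been studied for its effect on androgen signalling and on HSP90-dependent proteins, and the comparison with DMSO asks which genes answer within hours.

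In the resting ER the chaperone BiP, encoded by HSPA5, binds unfolded chains and also holds the stress sensors inactive. When unfolded protein accumulates, IRE1 (encoded by ERN1) splices the mRNA of the transcription factor XBP1, ATF6 travels to the Golgi and is cut by the site-1 and site-2 proteases (MBTPS1 and MBTPS2) into a transcription factor, and PERK (EIF2AK3) restrains translation and raises ATF4. The factors made in this way raise chaperone, oxidoreductase and ERAD genes. ERAD extracts misfolded proteins to the cytosol for the proteasome, and secretory cells such as luminal prostate cells use these systems at rest. The arrays give 1 level per probe set, so they report neither the splicing of XBP1 nor the cleavage of ATF6.

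The array labelled DMSO 3 did not carry the markers of LNCaP cells and was kept apart. On it 6 of 7 measured luminal prostate markers were down by 4-fold or more against the mean of DMSO 1 and DMSO 2, and their summed intensity was 183 against 13129 to 14257 on the other 5 arrays. Of 9 measured leukocyte markers, 9 lay at least 4-fold above, with a sum of 22594 against 726 to 919.6 on the other 5. Of 6 markers of B lymphoid and plasma cells, 5 lay at least 4-fold above, with a sum of 4548 against 175 to 217, while the plasma cell marker SDC1 read 29.4 against 107 and 119.6 on DMSO 1 and 2. The comparison therefore used gedunin 1, 2 and 3 against DMSO 1 and 2. In bulk RNA such as this, fewer cells of a type and less RNA per cell cannot be told apart. Every result that follows is from these 5 arrays unless all 6 are named, and the value on the array labelled DMSO 3 stands beside each member whose readings are given.

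After gedunin, a small part of the ER program rose, and most folding enzymes were not called. In limma's test (adjusted p under 0.05), 11 of 41 members were called higher (26.8%), while 8.22% of all genes were, and 1 member was called lower (2.44%), while 9.35% of all genes were. Leaving out DMSO 1 or DMSO 2 lowered the count over all genes from 1000 to 597 or 653 higher and from 1138 to 555 or 528 lower, and the members called higher to 9 or 8. Rises of at least 2-fold were found for 5 members (12.2%) and for 1.84% of all genes: FICD, HSPA13, HERPUD1, ERN1 and XBP1. That of ERN1 started from dim readings, and its log2 fold change was 0.72 with 16 added to every value. The smaller rises were those of HSPA5, HYOU1, ATF6, SEL1L, MANF and ERO1B, and the member called lower was MBTPS1. The median log2 fold change of the members, gedunin over DMSO, was 0.071, against -0.017 for all genes. It turned to -0.099 when each array was centred on GAPDH and ACTB (-0.19 for all genes), was 0.18 with all 6 arrays, and was 0.050 without DMSO 1 and 0.11 without DMSO 2. The remaining 29 members had log2 fold changes between -0.25 and 0.41.

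**Figure D1:**
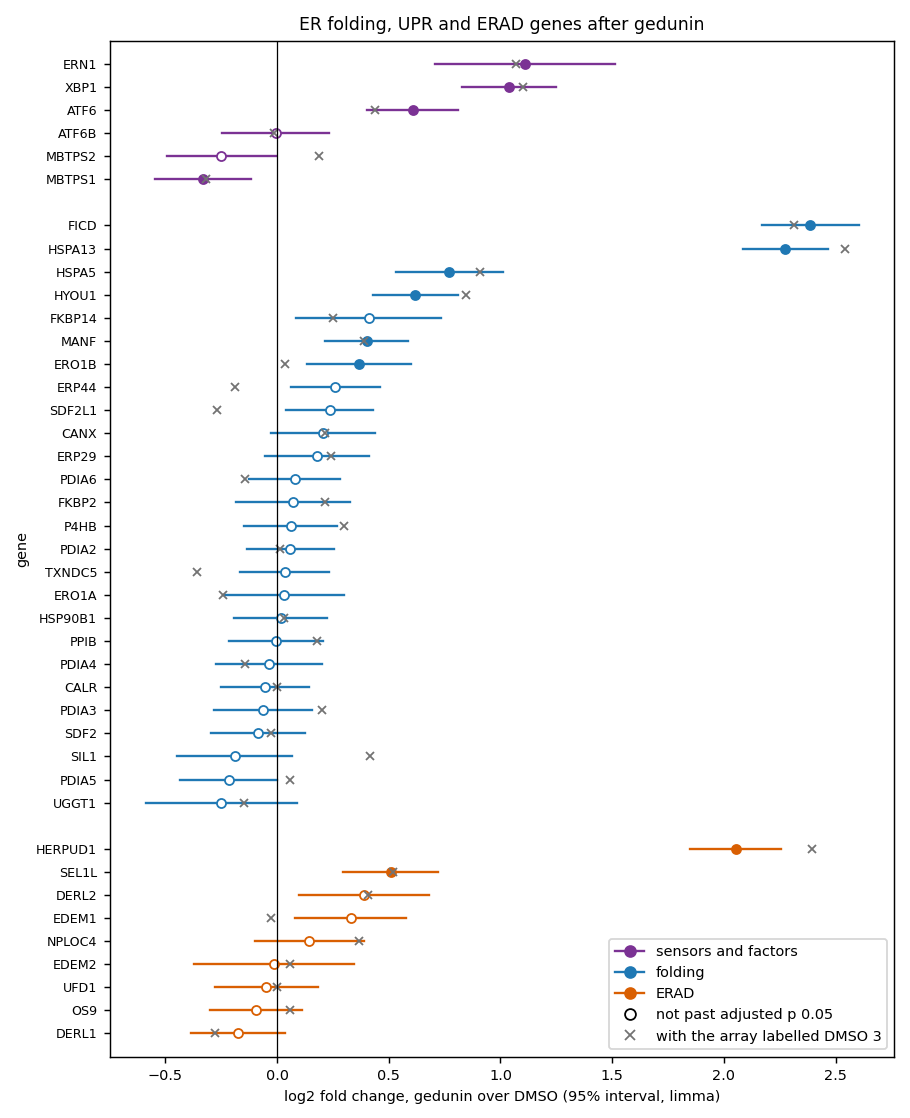
Log2 fold change of each of the 41 measured members, gedunin 1 to 3 over DMSO 1 and 2, with limma's 95% interval, by class. Filled points passed an adjusted p of 0.05 and crosses give the value with all 6 arrays. FICD, HSPA13 and HERPUD1 stand apart above 2, while the points of most folding enzymes lie close to 0.

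All gedunin arrays lay above both DMSO arrays for 17 members (41.5%), and for 20.2% of all genes. For 4 members (9.76%) all gedunin arrays lay below both DMSO arrays, which held for 26% of all genes. With all 6 arrays, 4 of 41 members were called higher (9.76%; 1.32% of all genes), FICD, HSPA13, XBP1 and HERPUD1. The calls of ATF6, ERN1, HSPA5, HYOU1, MANF, ERO1B and SEL1L were thus lost when the array labelled DMSO 3 entered. None was called lower by limma with all 6 arrays (0 members, against 0.353% of all genes), while 11 members were higher and 1 lower there at an unadjusted p under 0.05 (26.8% and 2.44%, against 6.96% and 6.40% of all genes).

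By class, 3 of 6 sensors and factors were called higher and 1 lower, with a median log2 fold change of 0.30. Of the 26 folding genes, 6 were called higher and 0 lower, with a median of 0.066 (9 higher and 1 lower at an unadjusted p under 0.05). Of the 9 ERAD genes, 2 were called higher and 0 lower, with a median of 0.14 (4 higher and 0 lower at an unadjusted p under 0.05). Over all genes, 8.22% were called higher and 9.35% lower, and 13.1% were higher and 17.3% lower at an unadjusted p under 0.05. The class medians on the gedunin arrays, relative to the mean of DMSO 1 and 2, were 0.24 to 0.37 for the sensors and factors, 0.085 to 0.13 for folding and 0.011 to 0.19 for ERAD. Within folding, 5 of the 9 genes of the HSP70 and HSP90 system were called higher, 0 of 3 lectin-cycle genes, 1 of 11 genes of disulphide formation and 0 of 3 prolyl isomerases. The classes are small, their members share the same arrays, and the differences between them were not tested. When each array was centred on GAPDH and ACTB, the median of all genes moved to -0.19, the folding median to -0.10 and the ERAD median to -0.025, so the sign of these 2 class medians depends on the reference. The same centring changed the split over all genes from 1000 higher and 1138 lower to 651 higher and 3137 lower, and gave 9 members higher and 5 lower. ACTB itself was called higher with gedunin (0.32 ± 0.087 on the log2 scale, adjusted p = 0.0347).

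The DNA upstream of some members is shown because several of them carry the same ER stress element. The rule for members did not use sequence, but they are known genes of the response that this element serves. The element and the list are thus not independent, and the shares below are a description and no test. The 250 bases before each RefSeq start were searched on both strands for exact matches of 5 motifs, and 39 of the 43 listed genes had such a window. The ER stress element ERSE, bound by ATF6 with NF-Y, reads CCAAT, then any 9 bases, then CCACG. ERSE-II reads ATTGG, then any 1 base, then CCACG. The others were TGACGTGG (an XBP1 and ATF6 site), TGATGNAA (an ATF4 and C/EBP composite site) and TGACGTCA (the cyclic AMP response element). ERSE was found in 8 members (20.5% of those with a window), CALR, CANX, ERO1B, FICD, HSP90B1, HSPA5, PDIA6 and XBP1, and in 0.0916% of all genes with a window. ERSE-II was found in 3 members (7.69%), HERPUD1, HYOU1 and SDF2L1, and in 0.0659% of all genes.

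Below are the 250 bases upstream of the start for 5 called members with an ERSE or ERSE-II, for HSPA13, which was called without any of the 5 motifs, and for CALR and HSP90B1, which hold ERSE and were not called. They read 5′ to 3′ on the gene's own strand, from RefSeq on GRCh38.p14, and capitals mark motif matches in either orientation. FICD lies at chr12:108515027-108515276 (plus strand), HERPUD1 at chr16:56931892-56932141 (plus strand), XBP1 at chr22:28800570-28800819 (minus strand), HSPA5 at chr9:125241344-125241593 (minus strand), HYOU1 at chr11:119057206-119057455 (minus strand), HSPA13 at chr21:14383147-14383396 (minus strand), CALR at chr19:12938359-12938608 (plus strand) and HSP90B1 at chr12:103930160-103930409 (plus strand).
FICD: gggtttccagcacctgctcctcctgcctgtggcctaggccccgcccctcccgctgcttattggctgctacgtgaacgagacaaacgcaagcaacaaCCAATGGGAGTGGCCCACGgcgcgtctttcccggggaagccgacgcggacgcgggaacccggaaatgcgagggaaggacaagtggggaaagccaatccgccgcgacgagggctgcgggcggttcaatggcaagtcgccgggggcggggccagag
HERPUD1: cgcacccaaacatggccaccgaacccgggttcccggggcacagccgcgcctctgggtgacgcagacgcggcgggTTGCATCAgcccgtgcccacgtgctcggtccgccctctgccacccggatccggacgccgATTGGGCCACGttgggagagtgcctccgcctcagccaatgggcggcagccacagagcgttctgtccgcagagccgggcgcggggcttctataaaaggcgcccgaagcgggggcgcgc
XBP1: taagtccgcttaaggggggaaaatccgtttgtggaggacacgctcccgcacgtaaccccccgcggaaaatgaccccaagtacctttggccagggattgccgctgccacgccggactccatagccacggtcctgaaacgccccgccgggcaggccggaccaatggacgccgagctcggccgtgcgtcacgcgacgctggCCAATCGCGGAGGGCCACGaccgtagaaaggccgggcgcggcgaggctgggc
HSPA5: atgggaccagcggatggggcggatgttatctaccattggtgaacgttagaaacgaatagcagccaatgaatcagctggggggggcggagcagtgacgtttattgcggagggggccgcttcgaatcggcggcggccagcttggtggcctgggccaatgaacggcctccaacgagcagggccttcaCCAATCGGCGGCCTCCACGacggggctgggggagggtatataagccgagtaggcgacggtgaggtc
HYOU1: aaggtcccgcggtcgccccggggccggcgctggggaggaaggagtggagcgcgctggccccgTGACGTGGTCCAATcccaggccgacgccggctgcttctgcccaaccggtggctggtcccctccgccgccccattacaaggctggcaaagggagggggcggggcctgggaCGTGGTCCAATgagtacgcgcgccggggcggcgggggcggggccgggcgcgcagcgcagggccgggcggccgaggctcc
HSPA13: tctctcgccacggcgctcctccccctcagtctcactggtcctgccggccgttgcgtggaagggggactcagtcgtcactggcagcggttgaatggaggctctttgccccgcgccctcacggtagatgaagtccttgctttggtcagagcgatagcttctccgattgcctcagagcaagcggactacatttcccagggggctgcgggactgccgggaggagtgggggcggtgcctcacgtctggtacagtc
CALR: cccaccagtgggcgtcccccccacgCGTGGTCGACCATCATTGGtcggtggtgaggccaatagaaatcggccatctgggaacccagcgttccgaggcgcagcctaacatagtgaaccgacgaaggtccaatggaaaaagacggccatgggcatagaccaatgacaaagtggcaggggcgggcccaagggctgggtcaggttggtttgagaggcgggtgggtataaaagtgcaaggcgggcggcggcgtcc
HSP90B1: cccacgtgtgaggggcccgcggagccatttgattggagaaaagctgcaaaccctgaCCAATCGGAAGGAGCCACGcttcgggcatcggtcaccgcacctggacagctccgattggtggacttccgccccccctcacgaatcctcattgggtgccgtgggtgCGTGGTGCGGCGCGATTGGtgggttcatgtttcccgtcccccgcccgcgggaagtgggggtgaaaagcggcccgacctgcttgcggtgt

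In HERPUD1 the first match is the ATF4 and C/EBP composite site, from 176 to 169 bases before the start (found in 2.56% of members with a window and 3.89% of all genes), and the second is ERSE-II, from 117 to 107. HERPUD1 was the 1 member with the composite site. In HYOU1 the first run of capitals joins a TGACGTGG match to an ERSE-II that overlaps it, and a second ERSE-II follows. TGACGTGG was found in 2 members, HYOU1 and TXNDC5 (5.13%, against 0.78% of all genes), and TGACGTCA in 0 members (2.03% of all genes). HSP90B1 holds 2 ERSE matches, 1 in each orientation. Of the 11 measured members with ERSE or ERSE-II, 6 were called higher, with a median log2 fold change of 0.37. That median is the value of ERO1B, which is among the 6. ERO1B had dim readings, and its call was lost in 9 of the 17 alternatives that kept the array labelled DMSO 3 out. Among the 26 measured members with a window and neither element, 5 were called higher and 1 lower, with a median of 0.047. Over all genes, 8.22% were called higher and 9.35% lower. A match describes the letters in this window and not a bound site, and the difference between these groups was not tested.

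Among the folding genes, the largest rises were those of FICD and HSPA13. FICD, the ER enzyme that attaches and removes AMP on BiP and so sets its activity, read 365, 322 and 313 on the gedunin arrays and 65.0 and 62.2 on DMSO 1 and 2. The groups were far apart, with a log2 fold change of 2.39 ± 0.097 (a fold of 5.23, 95% interval 4.50 to 6.08, adjusted p = 2.31e-07). HSPA13, a microsomal HSP70-like protein also called STCH, read 594, 567 and 572 with gedunin and 117 and 121 on DMSO 1 and 2. Its log2 fold change was 2.27 ± 0.085 (a fold of 4.84, 95% interval 4.24 to 5.52, adjusted p = 1.36e-07), and its other probe set rose by 1.95 ± 0.096 (adjusted p = 7.79e-07). On the array labelled DMSO 3, FICD read 74.2 and HSPA13 68.6. That array did not carry the markers of LNCaP cells, so these readings are no further control. With all 6 arrays the changes were 2.31 ± 0.11 (FICD, adjusted p = 0.00333) and 2.54 ± 0.24 (HSPA13, adjusted p = 0.0146).

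HSPA5 itself and HYOU1 rose by less. HSPA5 read 4009, 4754 and 4879 with gedunin, 2757 and 2557 on DMSO 1 and 2, and 1994 on the array labelled DMSO 3. The lowest gedunin array was still above both controls, with a log2 fold change of 0.77 ± 0.11 (a fold of 1.71, 95% interval of the log2 fold change 0.53 to 1.01, adjusted p = 9.50e-04). The 6-array fit gave 0.91 ± 0.16 (adjusted p = 0.0756). HYOU1, the HSP110-like chaperone that exchanges nucleotide on BiP, read 1318, 1359 and 1301 with gedunin against 854 and 871, and 537 on the array labelled DMSO 3. It rose by 0.62 ± 0.084 (a fold of 1.54, adjusted p = 8.51e-04), and with all 6 arrays had 0.85 ± 0.21 (adjusted p = 0.170). SIL1, the other nucleotide exchange factor for BiP, was not called, at -0.19 ± 0.11 (95% interval -0.45 to 0.066, adjusted p = 0.338), with overlapping groups. Its reading on the array labelled DMSO 3 was 82.7, against 302 and 279 on DMSO 1 and 2.

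MANF, a secreted factor of the stressed ER that binds BiP, read 1331, 1320.1 and 1295 with gedunin, 995 and 996 on DMSO 1 and 2, and 1024 on the array labelled DMSO 3. It rose by 0.40 ± 0.084 (adjusted p = 0.00940), and with all 6 arrays the value was nearly the same, 0.39 ± 0.071, but not called (adjusted p = 0.0879). The call was also lost when either DMSO array was left out (adjusted p = 0.0702 and 0.0684) and under centring on GAPDH and ACTB. SDF2L1, an ER-stress-inducible partner of the J-domain proteins, read 169, 159.8 and 157 against 135 and 139.7. These groups did not overlap, yet the gene was not called (0.24 ± 0.087, 95% interval 0.042 to 0.43, adjusted p = 0.107). On the array labelled DMSO 3 SDF2L1 read 392, and with all 6 arrays its value turned to -0.27 ± 0.43. SDF2, its constitutive relative, had -0.085 ± 0.094.

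HSP90B1, which encodes the ER HSP90 called GRP94, is a usual companion of BiP in the UPR, but its level did not separate the groups. It read 1902, 1792 and 2055 with gedunin against 1884 and 1901, and 1828 on the array labelled DMSO 3. The gedunin arrays lay on both sides of the controls, and the 95% interval of its log2 fold change was -0.19 to 0.22 (0.015 ± 0.093, adjusted p = 0.940). None of its 4 probe sets was called by limma (0 at an adjusted p under 0.05), and they ranged from -0.20 to 0.13.

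In the calnexin and calreticulin cycle, lectin chaperones hold glycoproteins until they are folded, and UGGT1 re-tags those that are not. CALR, the soluble lectin, read 1244, 1178 and 1235 with gedunin against 1220.0 and 1313 (1132 on the array labelled DMSO 3) and lay at -0.055 ± 0.088 (95% interval -0.25 to 0.14). Of its 5 probe sets 0 were called, with changes from -0.11 to 0.29. CANX, the membrane-bound lectin, read 2823, 2606 and 3194 against 2533 and 2432, and 2432 on the array labelled DMSO 3. Its 3 gedunin arrays were above both controls, but the probe set used was not called (0.21 ± 0.10, adjusted p = 0.243), while 1 of its other 2 was (0.31 ± 0.090, adjusted p = 0.0443). UGGT1 had -0.25 ± 0.15 (adjusted p = 0.342) with overlapping groups.

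Of the enzymes that form and shuffle disulphide bonds, most were not called. The protein disulphide isomerases P4HB (0.061), PDIA2 (0.059), PDIA3 (-0.063), PDIA4 (-0.037), PDIA5 (-0.22), PDIA6 (0.079) and TXNDC5 (0.034) were not called, nor were ERP29 (0.18), ERP44 (0.26), which retains client proteins in the early secretory pathway, or ERO1A (0.031), an oxidase that recharges the isomerases. PDIA4 read 470.0, 484 and 396 with gedunin against 463 and 457 (575 on the array labelled DMSO 3), with a 95% interval of -0.27 to 0.20. ERO1B, the second oxidase, was called at 0.37 ± 0.10 (adjusted p = 0.0408), on readings of 30.3, 36.0 and 36.3 against 27.1 and 25.8. These are around the array median of 31.7, and the call was lost in 9 of the 17 alternatives that kept the array labelled DMSO 3 out, among them leaving out gedunin 2, gedunin 3, DMSO 1 or DMSO 2. The fit with a replicate block is among these 9, and it is no separate alternative, because its log2 fold changes equal those without gedunin 3. On the array labelled DMSO 3 ERO1B read 52.6. PDIA5, with readings of 269, 293 and 316 against 337 and 342 (191 on the array labelled DMSO 3), lay below both controls on every gedunin array but was not called (adjusted p = 0.182).

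Prolyl isomerases, which speed the folding of chains that contain proline, were likewise not called. PPIB, cyclophilin B, had a log2 fold change of -0.0044 ± 0.095 and FKBP2 one of 0.071 ± 0.11. FKBP14 had 0.41 ± 0.15 (adjusted p = 0.0950), the largest value among uncalled members, on readings of 36.5, 42.4 and 28.7 against 25.8 and 27.6, and 37.1 on the array labelled DMSO 3. It was called when gedunin 3, its lowest gedunin array, was left out.

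**Figure D2:**
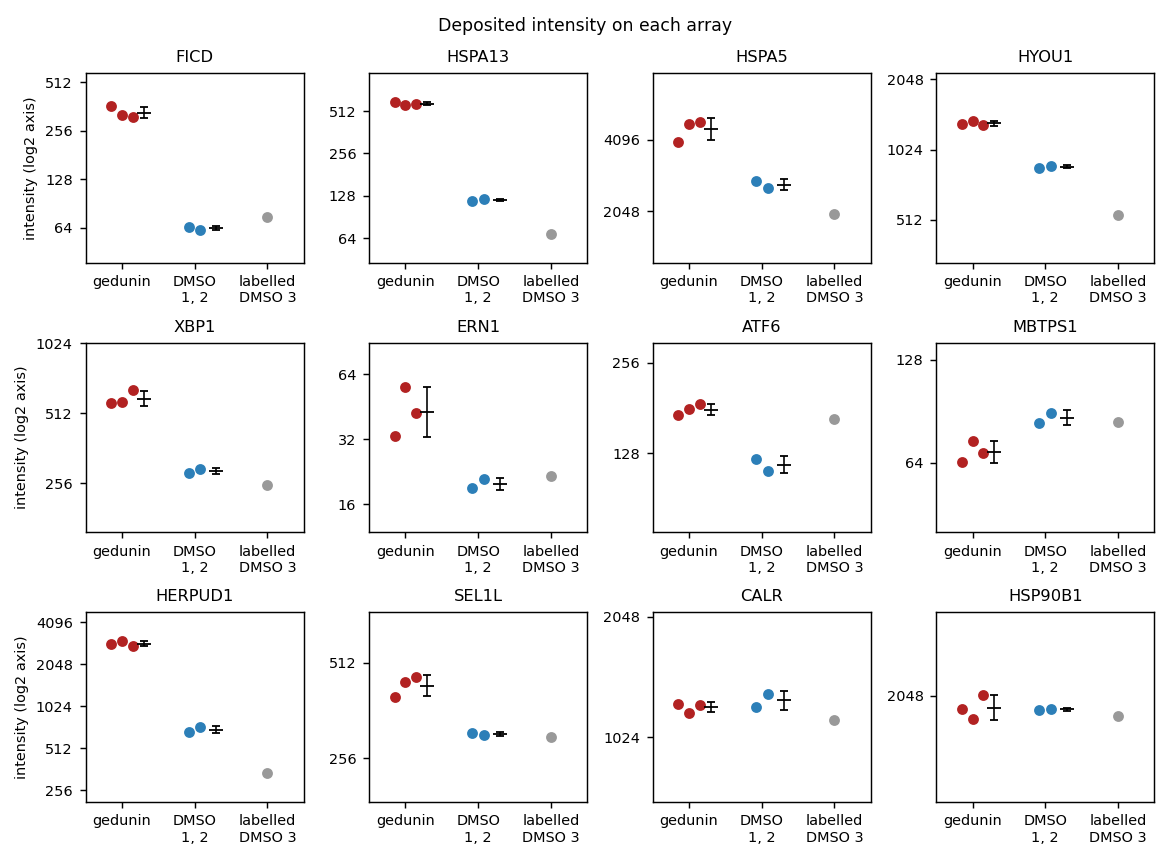
Deposited intensity of 12 members on each array, on a log2 axis whose range differs between panels, with gedunin in red, DMSO 1 and 2 in blue and the array labelled DMSO 3 in grey. Bars give the mean of the log2 values with 1 SD, for the 3 gedunin arrays and for DMSO 1 and 2. FICD, HSPA13, XBP1 and HERPUD1 rise clearly above both controls, while the points of CALR and HSP90B1 overlap.

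Among the sensors and factors, XBP1, ERN1 and ATF6 rose, and neither protease that cuts ATF6 was called higher. XBP1 read 568, 570.1 and 644 with gedunin, 283 and 295 on DMSO 1 and 2, and 253 on the array labelled DMSO 3. No array of one group reached the range of the other, and the fold was 2.05 (95% interval 1.77 to 2.37; log2 fold change 1.04 ± 0.094, adjusted p = 5.87e-05). ERN1, the sensor and nuclease that splices XBP1, read 33.1, 56.1 and 42.4 against 19.0 and 20.8, and 21.6 on the array labelled DMSO 3. It rose by 1.11 ± 0.18 (adjusted p = 0.00237), with the widest interval among the called members (0.71 to 1.51). Its readings on DMSO 1 and 2 were below the array median and near the lower quartiles of those arrays (19.5 and 19.4). With 16 added to every value the rise was 0.72 ± 0.14. In the 6-array fit ERN1 had 1.07 ± 0.20 (adjusted p = 0.0970).

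ATF6 read 171, 179 and 186 with gedunin against 123 and 112, a rise of 0.61 ± 0.091 (a fold of 1.52, adjusted p = 0.00147). The array labelled DMSO 3 read 166, and with all 6 arrays the call was lost (0.44 ± 0.16, adjusted p = 0.378). The second probe set of ATF6 had 0.056 ± 0.092, on readings of 23.2 to 26.5 over the 5 arrays. ATF6B, the paralogue of ATF6, was not called, at -0.0056 ± 0.11 (95% interval -0.24 to 0.23), on readings of 26.5 to 32.9 over the 6 arrays. MBTPS1, the site-1 protease, read 64.1, 74.0 and 68.4 with gedunin and 83.6 and 89.6 on DMSO 1 and 2 (84.1 on the array labelled DMSO 3), and was the member called lower (-0.33 ± 0.096, adjusted p = 0.0432). That call rested on 1 of its 2 probe sets, since the other had 0.20 ± 0.10 (adjusted p = 0.255), and it was lost without gedunin 1, gedunin 3, DMSO 1 or DMSO 2, each left out in turn. MBTPS2, the site-2 protease, read 68.3, 84.4 and 76.9 against 85.9 and 95.6, and 36.4 on the array labelled DMSO 3. It had -0.25 ± 0.11 (adjusted p = 0.176) and turned to 0.19 ± 0.39 with all 6 arrays.

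In ERAD the largest change was that of HERPUD1. This gene encodes HERP, an ER membrane protein that gathers the ubiquitin ligase complex of ERAD. It read 2861, 3006 and 2754 with gedunin, 665 and 721 on DMSO 1 and 2, and 339.9 on the array labelled DMSO 3. Every gedunin array lay well above DMSO 1 and 2, with a log2 fold change of 2.05 ± 0.091 (a fold of 4.15, adjusted p = 3.88e-07, 95% interval of the log2 fold change 1.85 to 2.25). It kept its call in the 6-array fit, at 2.39 ± 0.30 (adjusted p = 0.0334). SEL1L, the adaptor that links substrates to the ligase SYVN1, read 399, 445 and 462 against 308 and 303, and 299 on the array labelled DMSO 3. It rose by 0.51 ± 0.095 (a fold of 1.42, adjusted p = 0.00527) on the probe set used, and this call was lost without DMSO 2 (adjusted p = 0.0535) and with all 6 arrays (adjusted p = 0.0723). Its other 3 probe sets were not called and ranged from -0.0077 to 0.26.

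DERL2, a channel-forming derlin, had 0.39 ± 0.13 (adjusted p = 0.0755) with gedunin readings of 504, 445 and 382 above 307 and 368, and 323 on the array labelled DMSO 3. It was called when gedunin 3 was left out. EDEM1, a mannose-trimming factor that marks glycoproteins for ERAD, had 0.33 ± 0.11 (adjusted p = 0.0795), with groups that did not overlap. Its value on the array labelled DMSO 3 was 165, against 71.4 and 86.4 on DMSO 1 and 2. Neither of these passed the test. DERL1 (-0.17), the lectin OS9 (-0.094), EDEM2 (-0.014), and the VCP cofactors UFD1 (-0.047) and NPLOC4 (0.14) were not called either, and the 95% intervals of the 7 uncalled ERAD genes lay between -0.39 and 0.68.

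**Figure D3:**
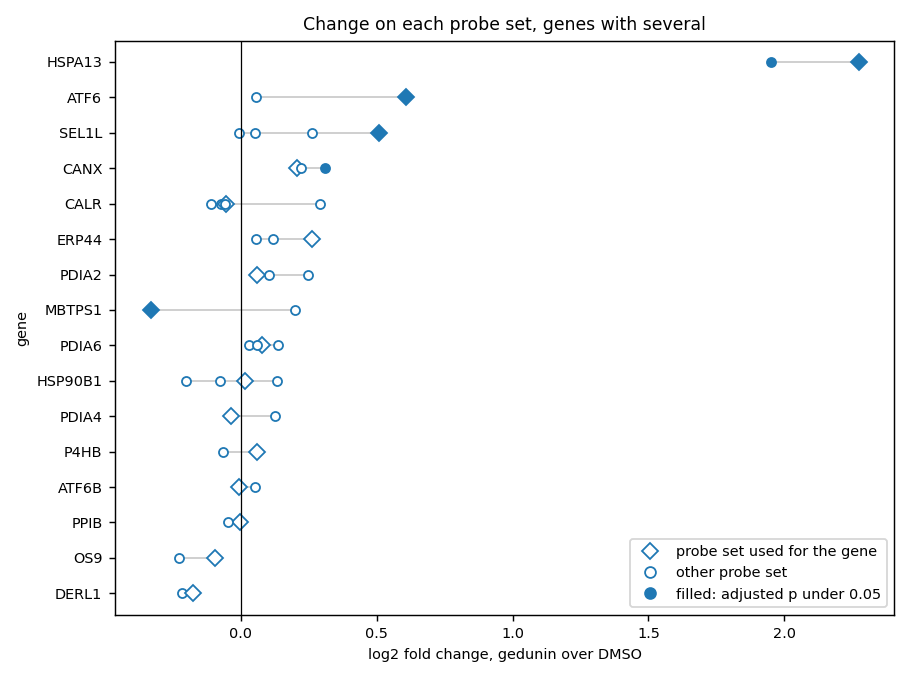
Log2 fold change, gedunin over DMSO 1 and 2, on each probe set of the 16 members that had 2 or more. Diamonds mark the probe set used for the gene and filled symbols those past an adjusted p of 0.05. Both probe sets of HSPA13 rose, while single probe sets carried the calls of ATF6, SEL1L and MBTPS1.

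Over the 16 members with 2 or more probe sets, HSPA13 was the 1 member with more than 1 called. XBP1, ERN1, FICD, HSPA5, HYOU1, MANF, ERO1B and HERPUD1 each had a single probe set, so no second reading of them was available. Of the 11 members called higher, 8 were called in every one of the 17 alternatives that kept the array labelled DMSO 3 out and held a probe set for them: XBP1, ATF6, ERN1, HSPA5, HSPA13, HYOU1, FICD and HERPUD1. The 17 are not all separate, since the fit with a replicate block has the log2 fold changes found without gedunin 3 (XBP1 0.978 in both). Choosing probe sets by the 5 arrays reuses the main fit and gave these members the same values. For those with a single probe set, the mean of all probe sets also left the log2 fold change as it was. ERN1, at a mean of 19.9 on DMSO 1 and 2, passed the filter on dim probe sets only through its gedunin readings. That alternative therefore adds no support for ERN1.

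Some members read differently on the array labelled DMSO 3, at shares close to or below those of all genes. Relative to the mean of DMSO 1 and 2 their median log2 difference there was -0.058. SDF2L1, ERP44, TXNDC5 and EDEM1 were at least 2-fold higher on it (9.76% of members, 9.22% of all genes), and SIL1, MBTPS2 and HERPUD1 at least 2-fold lower (7.32% of members, 12.9% of all genes). Since that array enters the control mean of the 6-array fit, the signs of 14 members turned there, and 0 of these were called in either fit. They were MBTPS2, SIL1, SDF2L1, PDIA3, PDIA5, PDIA6, ERP44, TXNDC5, ERO1A, PPIB, EDEM1, EDEM2, UFD1 and OS9. The leukocyte markers were not called on the other 5 arrays in either direction (0 of 9 higher and 0 of 9 lower), with log2 fold changes of -0.26 to 0.13. Of the 7 luminal prostate markers, 2 were called higher with gedunin on these arrays (KRT18 0.47 and KRT8 0.34) and 2 lower (TMPRSS2 -0.70 and HOXB13 -0.39), and their part in the members' changes was not tested.

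Beyond the members, 40 of 53 further genes of the pathway were measured, and 12 were called higher (30%) and 1 lower (2.5%), against 8.22% and 9.35% of all genes. Their median log2 fold change of 0.17 was 0.0011 under centring on GAPDH and ACTB, and was 0.085 without DMSO 1, 0.24 without DMSO 2 and 0.28 with all 6 arrays. With all 6 arrays 4 were called higher, DDIT3, CHAC1, TRIB3 and DNAJB9, and 1 lower. In the PERK branch 3 of 5 rose. DDIT3, which encodes the pro-apoptotic factor CHOP, went from 161 and 184 on DMSO 1 and 2 to 3417, 3647 and 3326 with gedunin, a fold of 20.1 (95% interval 17.3 to 23.4). ATF4, the factor above DDIT3 in this branch, rose by 0.75 ± 0.087 and EIF2AK3 by 0.64 ± 0.095 (adjusted p = 0.00142). PPP1R15A, the GADD34 subunit that restores translation, was not called (0.51 ± 0.18, adjusted p = 0.0924).

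Of 5 measured ER J-domain proteins, which hand clients to BiP, DNAJB9 and DNAJC10 rose (40%, against 8.22% of all genes). DNAJB9 read 1191, 1239.6 and 1253 against 149.9 and 178, a fold of 7.51 (95% interval 6.44 to 8.76). DNAJC10, an ER reductase with a J domain, rose by 0.48 ± 0.088 (adjusted p = 0.00486). The gedunin arrays lay above both controls for DNAJC3, DNAJC1 and SEC63 too, which were not called (0.57 ± 0.18, 0.25 ± 0.11 and 0.23 ± 0.092). All gedunin arrays lay above both controls for 20.2% of all genes as well.

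Of 13 further ER stress genes measured, 6 were called higher (46.2%, against 8.22% of all genes) and 7 were not called. Their median log2 fold change was 0.18. Those called included CHAC1 (4.24), a glutathione-degrading enzyme, TRIB3 (3.31), a pseudokinase induced downstream of ATF4 and CHOP, and NUPR1 (1.44), a stress-induced nuclear protein. The rest called were SERP1 (0.88), which stabilises newly made membrane proteins, SEC24D (0.65), a coat protein of ER export vesicles, and WFS1 (0.65), an ER membrane protein. CHAC1 read 1267, 1227 and 1204 with gedunin against 63.2 and 67.4. It is the 1 further measured gene whose upstream window held the composite site seen in HERPUD1, a site found in 3.89% of all genes. Among the other further measured genes, ERSE lay upstream of SERP1, which was called. TGACGTGG lay upstream of DNAJC10, which was called, and of KDELR3, UBE2J1 and VCP, which were not. TGACGTCA lay upstream of CREB3L2 and PPP1R15A, which were not called. Among 14 further ERAD genes, 1 was called higher and 1 lower (7.14% each), shares not above those of all genes (8.22% and 9.35%). UBXN4, an ER-anchored VCP cofactor, rose by 0.54 ± 0.098 (adjusted p = 0.00426). UBE2G2, a ubiquitin-conjugating enzyme of ERAD, fell by 0.61 ± 0.090 (adjusted p = 0.00132), from 293 and 266 to 184, 187 and 175. It was called lower with all 6 arrays as well (adjusted p = 0.0407). None of the 3 measured CREB3-family factors was called by limma (0, and 1 at an unadjusted p under 0.05).

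**Figure D4:**
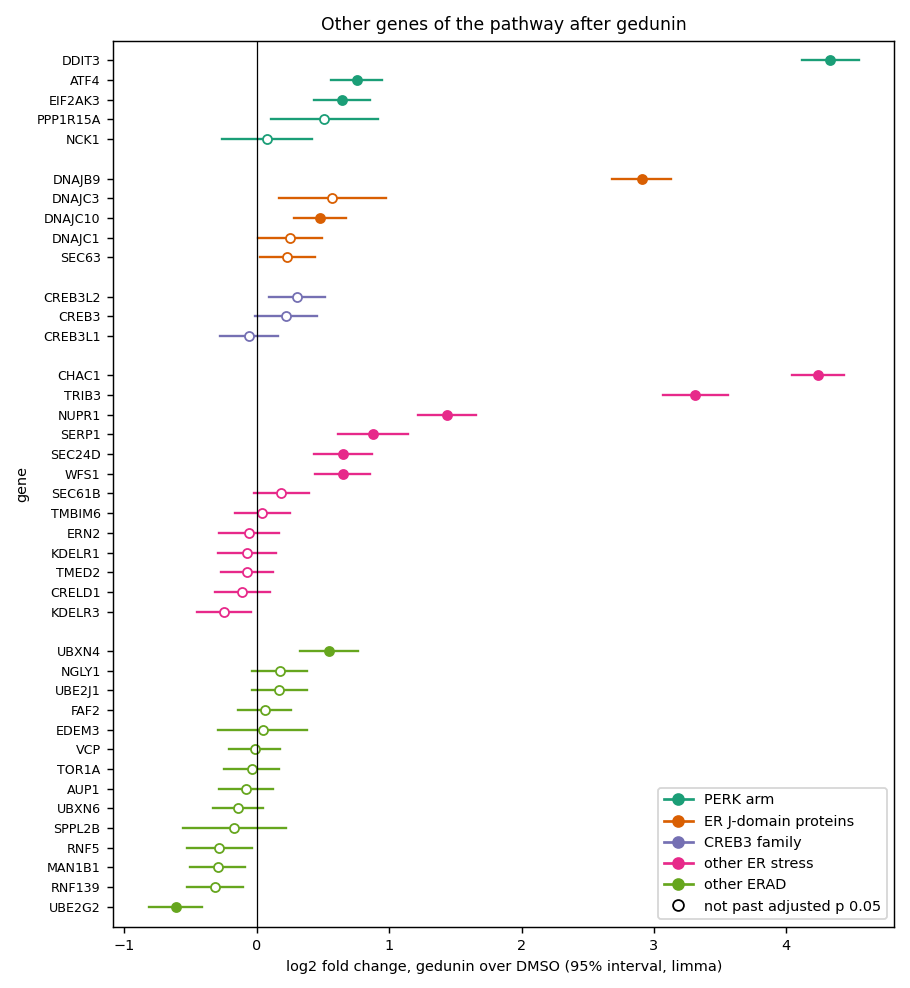
Log2 fold change, gedunin over DMSO 1 and 2, of the 40 further genes of the pathway, with limma's 95% interval, grouped by branch. Filled points passed an adjusted p of 0.05. DDIT3, CHAC1, TRIB3 and DNAJB9 lie between 2.91 and 4.33, and UBE2G2 is the 1 filled point below 0.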

How the data were processed

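For each array the authors deposited 22215 probe set intensity values. The submitters' processing notes name RMA as the method, with no version. RMA corrects background, normalizes quantiles and summarises probes. Which arrays were processed together is not given in the sources used here. Values were linear (lowest 11.0), so log2 was taken. Precision is limited by the small number of arrays.

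The platform annotation named exactly 1 gene for 19724 probe sets and several for 568, and the other 1923 are unnamed here. Where a gene had several probe sets, the one brightest on average across the 6 arrays stood for it. Gedunin was compared with DMSO 1 and 2 by limma (version 3.58.1, R 4.3.3; lmFit and eBayes, no filter), with Benjamini-Hochberg adjustment over all probe sets. Errors are moderated standard errors, and RMA can compress differences near background. The code was tested on simulated data.

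The members and lists were chosen with earlier results of these data known. By the naming rule every member is accounted for, with full values for called members, for a fixed list of well-known UPR genes whatever their result, and for the most changed of the further genes. The motif search used RefSeq windows of GRCh38.p14, and protein sequences were not used here. Alternatives were the 6-array fit, leaving out each array, a replicate block, 3 normalizations, a filter on dim probe sets, an added constant of 16, other variance models, a threshold of 0.01 and other choices of probe set.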

Additional observations from a re-analysis of the deposited data

Results flagged for a closer look

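On the array labelled DMSO 3, which the comparison of gedunin with DMSO did not use, 3 members read at least 2-fold above both DMSO 1 and DMSO 2 (7.32%), as did 8.54% of all genes. SDF2L1 read 392 there against 135 and 139.7, ERP44 1336 against 527 and 524, and TXNDC5, a disulphide isomerase, 2297 against 993 and 1039. The summed intensity of the B lymphoid and plasma cell markers was 4548 on that array and 175 to 217 on the others, although SDC1 in that list read 29.4 there against 107 and 119.6 on DMSO 1 and 2, and whether these markers bear on the readings was not tested.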

How the results depend on the processing

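With all 6 arrays, 4 members were called higher and 0 lower, with 1 of the sensors and factors, 2 folding genes and 1 ERAD gene among them, 4 further pathway genes were called higher, and the folding median was 0.12. MBTPS2 (0.19), SIL1 (0.41), SDF2L1 (-0.27), PDIA3 (0.20), PDIA5 (0.059), PDIA6 (-0.15), ERP44 (-0.19), TXNDC5 (-0.36), ERO1A (-0.24), PPIB (0.18), EDEM1 (-0.027), EDEM2 (0.056), UFD1 (8.2e-05) and OS9 (0.058) turned sign there, with the same values under a replicate block. The labels give both groups the replicate numbers 1 to 3. For same-numbered arrays, r of deviations from the group means was -0.033 and 0.039 for numbers 1 and 2 in the 5 arrays. It was -0.013, 0.048 and 0.032 for the 3 pairs of all 6, and not every array correlated best with its own number. With 2 DMSO arrays the deviations mirror each other, and with all 6 the array labelled DMSO 3 enters every DMSO deviation. This check therefore cannot decide whether the arrays were paired. With the replicate block on 5 arrays, 12 members were called higher and 0 lower (3 lower at an unadjusted p under 0.05), the folding median was 0.10 and 2 further genes were called lower. In that fit gedunin 3 is alone in its block and drops out of the contrast. Its log2 fold changes therefore equal those found without gedunin 3, and it is no separate alternative for them. With the replicate block on 6 arrays 0 members and 0 further genes were called by limma in either direction (10 members higher and 1 lower at an unadjusted p under 0.05), and the folding median was 0.12. That fit called 1 of 12165 genes higher and 0 lower, so it says nothing of these genes in particular.

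Centring on GAPDH and ACTB gave 9 members higher and 5 lower (MBTPS1, MBTPS2, SIL1, PDIA5 and DERL1), 6 further genes lower, and medians of 0.13 (sensors and factors), -0.10 (folding) and -0.025 (ERAD), and turned the split of all genes from 1000 higher and 1138 lower into 651 and 3137. Without _x_at and _s_at probe sets MBTPS1 had 0.20, 0 members and 0 further genes were lower, 0 of the 3 ERAD genes left were higher, HERPUD1 and SEL1L having no such probe set, and the medians were 0.40 (sensors and factors) and 0.33 (ERAD). With the mean of all probe sets 0 members were lower, 1 ERAD gene was higher, 2 further genes were lower and the median of sensors and factors was 0.18. The call on MBTPS1 was also lost (0 members lower) under median centring, a second quantile normalization, trend and robust variance and a threshold of 0.01. Further genes called lower numbered 3 without dim probe sets, after the second quantile normalization and with 16 added, and 2 with trend and robust variance and with array weights. Dropping dim probe sets moved the median of sensors and factors to 0.61. That filter used the mean over the 5 arrays, gedunin included (log2 minimum 4.97). ERN1, at a mean of 19.9 on DMSO 1 and 2, stayed only through its gedunin readings, so this median adds no support. Leaving out 1 array at a time gave 8 to 12 members higher and 0 to 1 lower, 3 to 3 sensors and factors, 4 to 6 folding and 1 to 3 ERAD genes higher, medians of 0.26 to 0.34, 0.060 to 0.10 and 0.039 to 0.26, and 11 to 13 further genes higher and 1 to 2 lower. The causes of these shifts were not tested. Mean readings below the array median (31.7) on DMSO 1 and 2 limit ERN1, ERO1B, FKBP14, ATF6B and PDIA2.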
